A study of Homo sapiens with 2 samples.

Results

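The 10 genes described here, of 36601 human features counted, carry the cell cycle engine: the cyclins CCND1, CCND3, CCNE1, CCNE2 and CCNB1, the phosphatases CDC25A and CDC25B, and the cyclin-dependent kinase inhibitors CDKN1A, CDKN1B and CDKN1C. They were chosen by gene symbol, with earlier results of these data known. All 10 were found, each under 1 identifier, and all 10 passed the filter on low counts in every comparison. The libraries came from Visium, which captures polyadenylated RNA of a tissue section on a grid of barcoded spots, so that each spot holds the RNA of several neighbouring cells. Both tumors, Tumor-897 and Tumor-899, were grown from MDA-MB-231, a human triple-negative breast cancer line, here in its hypoxia fate-mapping form, in which cells that meet low oxygen switch on a lasting fluorescent label. The tumors were taken on day 18 after implantation, received no treatment, and were frozen fresh and cut at 10 µm. The labels put them in 1 group and name neither the host, the implantation site nor whether the tumors came from separate animals. The p-values therefore cover only these 2 sections, and they rest mostly on a spread between the sections that is shared over genes. The title of the series asks about hypoxia programs in tumor regions with and without oxygen, and the comparisons below follow the cell cycle genes along a hypoxia score within each section.

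Cyclins bind and switch on cyclin-dependent kinases: D cyclins with CDK4 or CDK6 start the phosphorylation of RB in G1, E cyclins with CDK2 carry cells into S phase, and cyclin B1 with CDK1 drives mitosis. CDC25 phosphatases remove the inhibitory phosphates that WEE1 and PKMYT1 put on these kinases, and CDKN1A (p21), CDKN1B (p27) and CDKN1C (p57) bind cyclin and kinase complexes and hold them inactive. Low oxygen is known to slow the cycle in many cell types, mostly before S phase, and a large part of the control of these proteins is by turnover and phosphorylation, which RNA counts do not show.

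Promoter windows of 250 bases before an annotated start were in the RefSeq table (GRCh38.p14) for 7 of the 10 genes, with 3 windows for CCND3 and 4 for CDC25B. They are shown for genes from each of the groups below, those that fell at high score and the inhibitors, as context for expression that differs along the score. Capitals mark matches, on either strand, to the hypoxia response core ACGTG or GCGTG, the E2F motif TTTGGCGC, TTTCCCGC, TTTCGCGC or TTTGCCGC, the cell cycle homology region TTTGAA or TTCGAA, and the CCAAT box.
CDC25A, chr3:48188418-48188667, minus strand: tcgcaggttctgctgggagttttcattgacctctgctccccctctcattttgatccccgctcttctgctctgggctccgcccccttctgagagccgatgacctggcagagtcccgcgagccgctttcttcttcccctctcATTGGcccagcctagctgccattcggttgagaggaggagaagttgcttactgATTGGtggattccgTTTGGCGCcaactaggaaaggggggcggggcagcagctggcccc
CDC25B, chr20:3796060-3796309, plus strand: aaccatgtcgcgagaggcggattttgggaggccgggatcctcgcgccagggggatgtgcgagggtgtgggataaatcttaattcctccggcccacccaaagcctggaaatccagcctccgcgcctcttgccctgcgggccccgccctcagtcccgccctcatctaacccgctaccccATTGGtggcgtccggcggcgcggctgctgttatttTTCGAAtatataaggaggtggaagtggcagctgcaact
CCNB1, chr5:69166900-69167149, plus strand: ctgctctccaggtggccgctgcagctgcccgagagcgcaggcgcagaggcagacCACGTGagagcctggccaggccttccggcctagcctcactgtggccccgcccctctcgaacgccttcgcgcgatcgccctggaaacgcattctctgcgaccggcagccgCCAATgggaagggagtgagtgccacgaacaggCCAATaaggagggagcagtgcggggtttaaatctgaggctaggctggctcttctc
CCNE1, chr19:29811741-29811990, plus strand: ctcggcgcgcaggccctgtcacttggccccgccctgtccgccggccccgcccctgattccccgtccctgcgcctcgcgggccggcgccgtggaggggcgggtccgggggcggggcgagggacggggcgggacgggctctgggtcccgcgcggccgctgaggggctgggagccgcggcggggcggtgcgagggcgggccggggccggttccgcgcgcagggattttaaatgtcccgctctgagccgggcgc
CDKN1A, chr6:36678464-36678713, plus strand: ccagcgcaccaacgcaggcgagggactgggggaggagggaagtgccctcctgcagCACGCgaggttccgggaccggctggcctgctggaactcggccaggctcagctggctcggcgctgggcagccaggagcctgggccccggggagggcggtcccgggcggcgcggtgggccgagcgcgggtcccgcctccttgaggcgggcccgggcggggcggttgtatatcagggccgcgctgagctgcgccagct
CDKN1B, chr12:12717118-12717367, plus strand: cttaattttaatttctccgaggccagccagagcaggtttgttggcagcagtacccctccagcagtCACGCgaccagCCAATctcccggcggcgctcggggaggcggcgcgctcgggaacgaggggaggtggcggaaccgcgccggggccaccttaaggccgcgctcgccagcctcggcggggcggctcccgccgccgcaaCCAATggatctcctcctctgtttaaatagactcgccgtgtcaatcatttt

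The CDC25A window held the E2F motif TTTGGCGC 44 bases before the start, and CCAAT boxes (as ATTGG) at 110 and 58 bases. Any of the listed E2F forms, on either strand, was found in 2.79% of all 35116 RefSeq windows of this length. Of the 4 CDC25B windows, the one shown held the homology region TTCGAA at 38 bases, present in 14.3% of all windows in either form, and a CCAAT box at 73 bases. Another held only a CCAAT box at 169 bases, and the other two had no match. In the CCNB1 window CCAAT boxes lay at 87 and 55 bases, and the letters CACGTG at 196 bases hold the hypoxia response core on both strands, the 2 matches overlapping. That core also lay at 195 bases in CDKN1A, at 185 bases in CDKN1B and at 197 bases in 1 of the 3 CCND3 windows, but 43.2% of all windows hold it. CDKN1B had CCAAT boxes at 174 and 50 bases, a motif in 32.0% of all windows, and the CCNE1 window had no match to any of the 4 motifs. A match is a string of letters and was not tested for binding.

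Per the RefSeq annotation of GRCh38.p14, CCND1 (ENSG00000110092) lies on chromosome 11 from 69641156 to 69654474 and CDKN1C (ENSG00000129757) on the same chromosome from 2883218 to 2885775. CCND3 (ENSG00000112576) spans 41934933 to 42050035 and CDKN1A (ENSG00000124762) 36676463 to 36687332 of chromosome 6. CCNE1 (ENSG00000105173) lies on chromosome 19 from 29811991 to 29824312 and CCNB1 (ENSG00000134057) on chromosome 5 from 69167150 to 69178245. CDC25A (ENSG00000164045) lies on chromosome 3 from 48157146 to 48188417, CDC25B (ENSG00000101224) on chromosome 20 from 3786951 to 3806115 and CDKN1B (ENSG00000111276) on chromosome 12 from 12717368 to 12722369. The identifier of CCNE2 in the files is ENSG00000175305.

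The 2536 kept spots of Tumor-897 held 58661164 UMIs (unique molecular identifiers, each counting 1 captured molecule) and the 2841 kept spots of Tumor-899 held 39735490, with medians of 23574 and 15895 per spot. Markers of the line fitted the label: VIM stood at 5639 and 5548 UMIs per 1000000 (CPM) and CD44 at 405 and 449, while ESR1 was at 0.119 and 0.126 and CDKN2A, which this line lacks, had 0 UMIs in both tumors. ERBB3 and GATA3, low in this line, lay between 4.35 and 5.80 CPM. Hypoxia was scored per spot as the mean standardised level of 28 textbook hypoxia targets, none of them among the 10 genes, averaged over each spot and its adjacent spots, and spots were split into quartiles within each tumor (634 spots each in Tumor-897, 710 or 711 in Tumor-899). Oxygen was not measured and the fluorescence images were not used here. The score was not independent of depth or of other cells. The median spot of the first quartile held 29991 UMIs in Tumor-897 and 3884.5 in Tumor-899, against 19462 and 17415.5 in the fourth. In Tumor-899 the first quartile also held more skeletal muscle marker RNA (971 against 24.4 CPM summed over 10 markers) and more fibroblast marker RNA (2027 against 834 CPM over 14), whereas Tumor-897 had 12.8 against 14.2 and 966 against 1143 CPM. Of the 62 markers of other cells, S100A8 had no UMI in Tumor-897, CLDN5 none in Tumor-899, and LEP and KRT1 none in either. Spots of the 2 sections share 1627 barcodes because both arrays use the same barcode set. Fewer cells of a type in a spot and less RNA per cell cannot be told apart in these data.

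Between the top and the bottom quartile, all 5 cyclins and both CDC25 phosphatases fell, CDKN1A and CDKN1C rose, and CDKN1B did not pass the test. That is 7 genes lower and 2 higher of 10 (edgeR quasi-likelihood test on UMI sums per tumor and quartile, tumor as a block, Benjamini-Hochberg adjusted p under 0.05 over 14126 genes), where 17.1% of all genes passed, 7.62% lower and 9.51% higher. The direction was the same in both tumors for all 10, and for 70.0% of all genes tested. The median log2 fold change of the 10 genes was -0.38, against 0.00 for all genes tested. Because the 10 genes were chosen with earlier results of these data known, their excess over all genes is a description and not independent support. Levels below are CPM over all UMIs of a quartile, and each log2 fold change uses TMM scaling, which sets library sizes from the bulk of genes, and comes with its SE from the edgeR fit on 2 tumors.

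**Figure D1:**
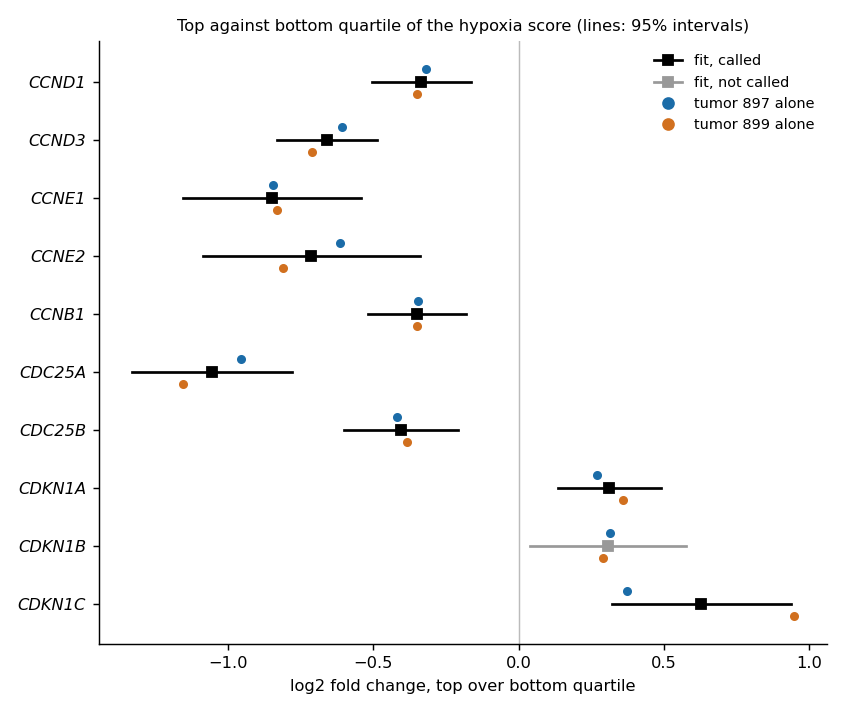
Log2 fold change of each gene between the top and the bottom quartile of the hypoxia score (x axis), one row per gene. Squares with lines are the edgeR estimate and its 95% interval (black where adjusted p is under 0.05, gray otherwise), and dots are the tumors taken alone. The cyclins and CDC25 genes lie left of 0, from -0.33 for CCND1 to -1.05 for CDC25A, and the 3 inhibitors right of it.

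CCND1, the D cyclin most used by breast cancer cells, stood at 288, 251, 235 and 212 CPM from the first to the fourth quartile of Tumor-897. Its levels in Tumor-899 were 342, 331, 286 and 251 CPM. Each quartile was below the one before it in both sections, and the exact 95% Poisson intervals of the first and the fourth quartile did not meet (280.4 to 296 against 204 to 219.7 in Tumor-897). The log2 fold change was -0.33 ± 0.08 (edgeR, SE, adjusted p = 0.00704).

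CCND3, another D cyclin with the same kinase partners, was lower in each successive quartile of both tumors. It went through 131, 109, 98.7 and 78.6 CPM in Tumor-897 and through 155, 144, 121 and 88.3 CPM in Tumor-899. The difference between the top and the bottom quartile was -0.66 ± 0.08 on the log2 scale, or 1.58-fold lower (edgeR, SE, adjusted p = 9.98e-06), with -0.61 and -0.71 in the tumors taken alone.

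CCNE1 and CCNE2 encode the E cyclins that bind CDK2 at the entry into S phase, and both are E2F target genes. CCNE1 had 16, 12.9, 11.9 and 8.09 CPM along the quartiles of Tumor-897 and 23, 22.9, 16.4 and 12 CPM in Tumor-899. It fell by 0.85 ± 0.15 on the log2 scale, a 1.80-fold difference (edgeR, SE, adjusted p = 4.11e-04), by nearly the same amount in either tumor (-0.84 and -0.83). CCNE2 had 11.4, 9.75, 8.55 and 6.77 CPM in Tumor-897 and 12.4, 13.2, 9.84 and 6.53 CPM in Tumor-899, where the second quartile was the highest. Its log2 fold change was -0.71 ± 0.18 (edgeR, SE, adjusted p = 0.00887). These were the least counted of the 7 genes, with 739 and 704 UMIs of CCNE1 and 549 and 400 UMIs of CCNE2 in all. Both lost their call when spots were thinned to 2000 UMIs, a setting that also left out shallower spots.

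CCNB1, the mitotic cyclin, is transcribed from late S phase to mitosis. Its levels were 270.1, 233, 222 and 195 CPM in Tumor-897 and 312, 319, 263 and 229 CPM in Tumor-899. The first pair of quartiles overlapped in Tumor-899 (intervals 298 to 326 and 307 to 330.2), and the fourth lay below all others in both tumors. The log2 fold change of -0.35 ± 0.08 (edgeR, SE, adjusted p = 0.00514) was -0.35 in each tumor taken alone.

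CDC25A, which frees CDK2 at the start of S phase and is removed when checkpoints are active, had the largest estimated fold change of the 10 genes. Tumor-897 had 26.5, 23.6, 20.1 and 12.5 CPM and Tumor-899 had 31.5, 35.4, 27.2 and 13.1 CPM, so in both sections the fourth quartile stood apart from the other three (its upper bounds were 14.5 and 15.4 CPM). The log2 fold change was -1.05 ± 0.13, 2.08-fold lower (edgeR, SE, adjusted p = 9.35e-06), and -0.95 and -1.15 in the tumors taken alone. Comparing only the outer deciles moved it to -1.79. Thinning the spots to 2000 UMIs, with shallower spots left out and the quartiles drawn again, moved it to -1.84.

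CDC25B, which acts on CDK1 before mitosis, had 55.1, 49.9, 43.5 and 37.7 CPM in Tumor-897 and 57.1, 61.3, 52.6 and 40.9 CPM in Tumor-899. It fell by 0.40 ± 0.09 on the log2 scale (edgeR, SE, adjusted p = 0.00532). The values of the tumors alone, -0.42 and -0.38, were close, but the call was lost between the outer deciles and after thinning.

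CDKN1A encodes p21, a p53 target in many cells that also responds to other stresses; MDA-MB-231 carries mutant p53. It had 74.1, 73.0, 77.7 and 82.0 CPM in Tumor-897 and 68.7, 81.1, 77.0 and 82.4 CPM in Tumor-899. The Poisson intervals of the outer quartiles met in Tumor-897 (70.2 to 78.1 and 77.1 to 87.1) and were apart in Tumor-899. The rise of 0.31 ± 0.09 on the log2 scale (edgeR, SE, adjusted p = 0.0149) shrank to 0.20 with library size alone as the scaling, where it was no longer called (adjusted p = 0.124).

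CDKN1C encodes p57, an imprinted inhibitor known from development and quiescence. Its levels were 15.5, 21.7, 18.6 and 18.4 CPM in Tumor-897 and 14.2, 15.4, 22.3 and 25.8 CPM in Tumor-899. Only in Tumor-899 did the level climb through all 4 quartiles, and only there were the intervals of the outer quartiles apart; the difference between the tumors was not tested. CDKN1C rose by 0.63 ± 0.15 on the log2 scale (edgeR, SE, adjusted p = 0.00546), with 0.37 in Tumor-897 and 0.95 in Tumor-899. With library size alone it was 0.51 (adjusted p = 0.0533) and not called.

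CDKN1B encodes p27, the inhibitor that rises in resting cells mainly through protein stability. Its levels were 19.0, 17.2, 19.6 and 21.7 CPM in Tumor-897 and 18.2, 22.9, 20.2 and 20.8 CPM in Tumor-899, with overlapping intervals throughout. The log2 difference of 0.31 ± 0.13 (95% interval 0.039 to 0.57) did not pass (edgeR, SE, adjusted p = 0.110) and was positive in both tumors (0.32 and 0.29).

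Depth and other cells moved with the quartiles, as given above. The low-UMI area was the 20.8% and 29.0% of spots in stretches with few captured UMIs. The same 7 genes were called lower and the same 2 higher without it. That also held without the spots richest in markers of other cells, and with the score ranked within strata of UMIs per spot. Thinning to 2000 UMIs first left out shallower spots, keeping 2521 in Tumor-897 and 2233 in Tumor-899. The score and its quartiles were then drawn again from the thinned counts. In that setting CCNE1, CCNE2, CDC25B and CDKN1A lost their calls. The same genes stayed called when the shallower spots were left out without thinning. Over all genes 1343 were called higher and 1076 lower in the main setting. The counts were 1652 and 1359 without the low-UMI area, and 1832 and 1583 without the marker-rich spots. They were 1386 and 1134 within UMI strata, and 525 and 314 after thinning. Without the low-UMI area the log2 fold change was -1.21 for CDC25A, -0.68 for CCND3 and 0.72 for CDKN1C. Of the 10 genes, DESeq2 called CDC25A and CCND3 lower and none higher, as did the fit with no tumor block.

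Neighbouring quartiles were then compared to place the differences along the score. From the first to the second quartile none of the 10 genes passed (edgeR, 1.17% of 14127 genes passed, 0.602% higher and 0.566% lower; 3 of the 10 had an unadjusted p under 0.05, and DESeq2 called none). From the second to the third none passed either (0.779% of 14248 genes, 0.639% higher and 0.140% lower; 6 of the 10 had an unadjusted p under 0.05, and DESeq2 called none). From the third to the fourth 5 genes fell and CDKN1A rose (10.1% of 14193 genes, 3.88% lower and 6.27% higher). All 10 had the same direction in both tumors at that last step, 5 at the first and 7 at the second. Of all genes tested, 63.5% had the same direction in both tumors at the last step, 52.8% at the first and 56.1% at the second. CDC25A, for example, had -0.14 in Tumor-897 and 0.15 in Tumor-899 at the first step. At the first and the last step edgeR used only the spread shared over genes, not a gene's own.

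CDC25A changed most at that last step, by -0.81 ± 0.10 on the log2 scale (edgeR, SE, adjusted p = 1.48e-12), against -0.017 ± 0.10 at the first step and -0.28 ± 0.10 at the second. CCND3 had -0.33 ± 0.05 (adjusted p = 3.69e-09) after steps of -0.19 and -0.16. CCNE1 (-0.42, adjusted p = 0.0131), CDC25B (-0.22, adjusted p = 0.0216) and CCNB1 (-0.13, adjusted p = 0.0291) were also called lower, and CDKN1A was called higher (0.16, adjusted p = 0.0313). The CDKN1A call was lost with library size alone (adjusted p = 0.283), with DESeq2 (0.563), with no filter on low counts (0.0879) and with no tumor block (0.867). CCNE2 (-0.39), CCND1 (-0.10), CDKN1C (0.18) and CDKN1B (0.17) were not called there. A call at the last step does not by itself place a fall there. CCNB1 had -0.092 ± 0.058 and -0.14 ± 0.06 at the first and second steps (SE, not called), against the called -0.13 ± 0.04. At those earlier steps CDC25B had -0.035 and -0.18, CCNE1 -0.17 and -0.28, CCNE2 -0.090 and -0.28, and CCND1 -0.12 and -0.12. Differences between the steps of 1 gene were not tested. The fibroblast markers summed to 959 and 1143 CPM in the third and the fourth quartile of Tumor-897 and to 737 and 834 CPM in Tumor-899, and their part in this step was not tested. Without the low-UMI area, CCND3 (-0.21, adjusted p = 0.0273) and CDC25A (-0.41, adjusted p = 0.00278) were already called lower at the second step, and at the last step CCNE1, CDC25B and CCNB1 lost their calls (adjusted p = 0.113, 0.182 and 0.0682, edgeR).

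**Figure D2:**
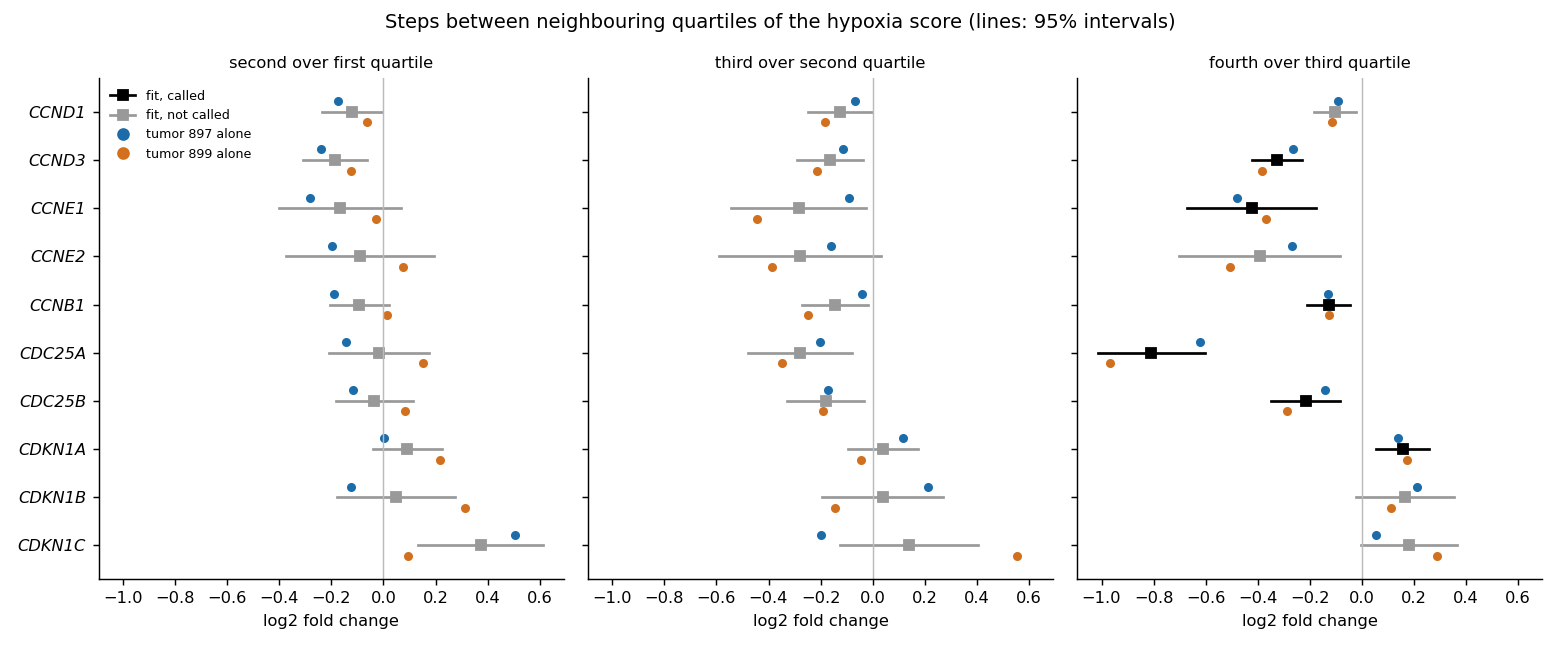
Log2 fold change of each gene at each step between neighbouring quartiles of the hypoxia score, 1 panel per step, with the edgeR estimate and its 95% interval as squares and lines (black where called) and the tumors alone as dots. Squares are gray in the first pair of panels, and in the third CDC25A lies farthest left, at -0.81.

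Deciles of the score show the shape in more detail, as a description. CDC25A went from 24.6 CPM in the first decile to 8.77 CPM in the tenth in Tumor-897, a 2.80-fold difference. In Tumor-899 it went from 38.5 to 6.47 CPM, a 5.95-fold difference that rests on 57 and 27 UMIs. With the score ranked within UMI strata the folds were 1.86 in Tumor-897 and 4.27 in Tumor-899. Over the unstratified deciles of Tumor-899, CDC25A stayed between 30.9 and 38.5 CPM in the first 6 and then declined at each of the remaining steps. CCND3 declined at 9 of 9 steps in Tumor-897, from 135 to 70.5 CPM, and at 8 of 9 in Tumor-899, from 161 to 80.8 CPM. CCNE2 had its lowest value in the tenth decile in both tumors, 3.39 and 4.31 CPM, from 12.1 and 10.1 CPM in the first. In Tumor-899 these CCNE2 levels rest on 15 UMIs in the first decile and 18 in the tenth, and their intervals met (5.67 to 16.7 and 2.56 to 6.82).

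The other cyclins and CDC25B were also lower in the tenth decile than in the first. CCNE1 went from 17.6 to 7.57 and from 25 to 11.5 CPM, CCND1 from 301 to 206 and from 330.4 to 237 CPM, and CCNB1 from 282 to 186 and from 295 to 220.5 CPM. CDC25B peaked in the fourth decile of Tumor-899 at 65.0 CPM, above the 50.7 CPM of the first and the 40.0 CPM of the tenth. CDKN1A had its highest level in the tenth decile of both tumors, 89.3 and 96.6 CPM, against medians over deciles of 75.2 and 77.1 CPM. CDKN1B was also highest there (22.3 and 25.4 CPM), with wide intervals. CDKN1C peaked in the third decile of Tumor-897 (21.6 CPM) and in the ninth of Tumor-899 (30.3 CPM), and was lowest in the first decile of both. The tenth decile was below the first for 7 genes and above it for 3 in both tumors, also with the score ranked within UMI strata.

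**Figure D3:**
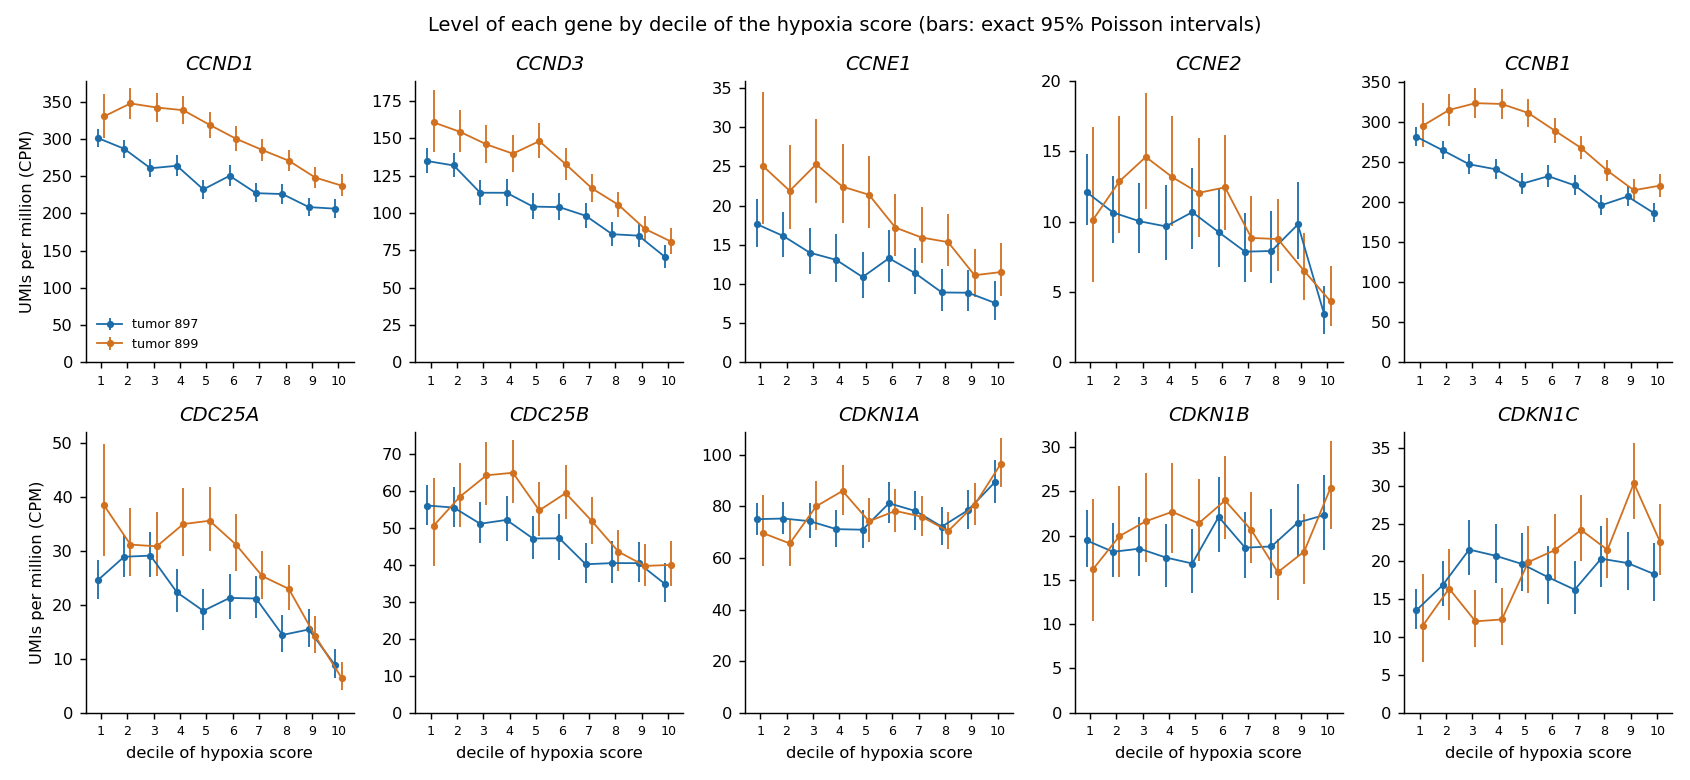
Level of each gene (CPM, y axis from 0) in the 10 deciles of the hypoxia score (x axis), with Tumor-897 in blue and Tumor-899 in orange and exact 95% Poisson intervals as bars, which cover counting error only. CDC25A ends at 8.77 and 6.47 CPM in the tenth decile, and CDKN1A has its highest level there in both tumors.

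At the level of single spots the genes were thinly counted. CCND1 had a UMI in 90.3% of spots of Tumor-897 and 77.0% of Tumor-899, CCNB1 in 89.0% and 75.6%, and CCND3 in 77.0% and 62.2%. CDKN1A was seen in 71.1% and 54.3% and CDC25B in 56.4% and 43.0%. The other 5 ranged from 12.1% of spots (CCNE2 in Tumor-899) to 33.7% (CDKN1B in Tumor-897), and the shallower tumor had the lower share for each gene. Moran's I, a measure of likeness between adjacent spots, was 0.114 and 0.225 for CCND1 and 0.0161 and 0.0410 for CDKN1B, against 0.897 and 0.921 for the smoothed score. CDKN1C had 18 UMIs in 1 spot of Tumor-897, where no other spot had more than 5. That spot lay in the second quartile, and leaving it out moved the first step of CDKN1C from 0.37 to 0.32 and the second from 0.14 to 0.19 (neither called), an alternative chosen after seeing the data.

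**Figure D4:**
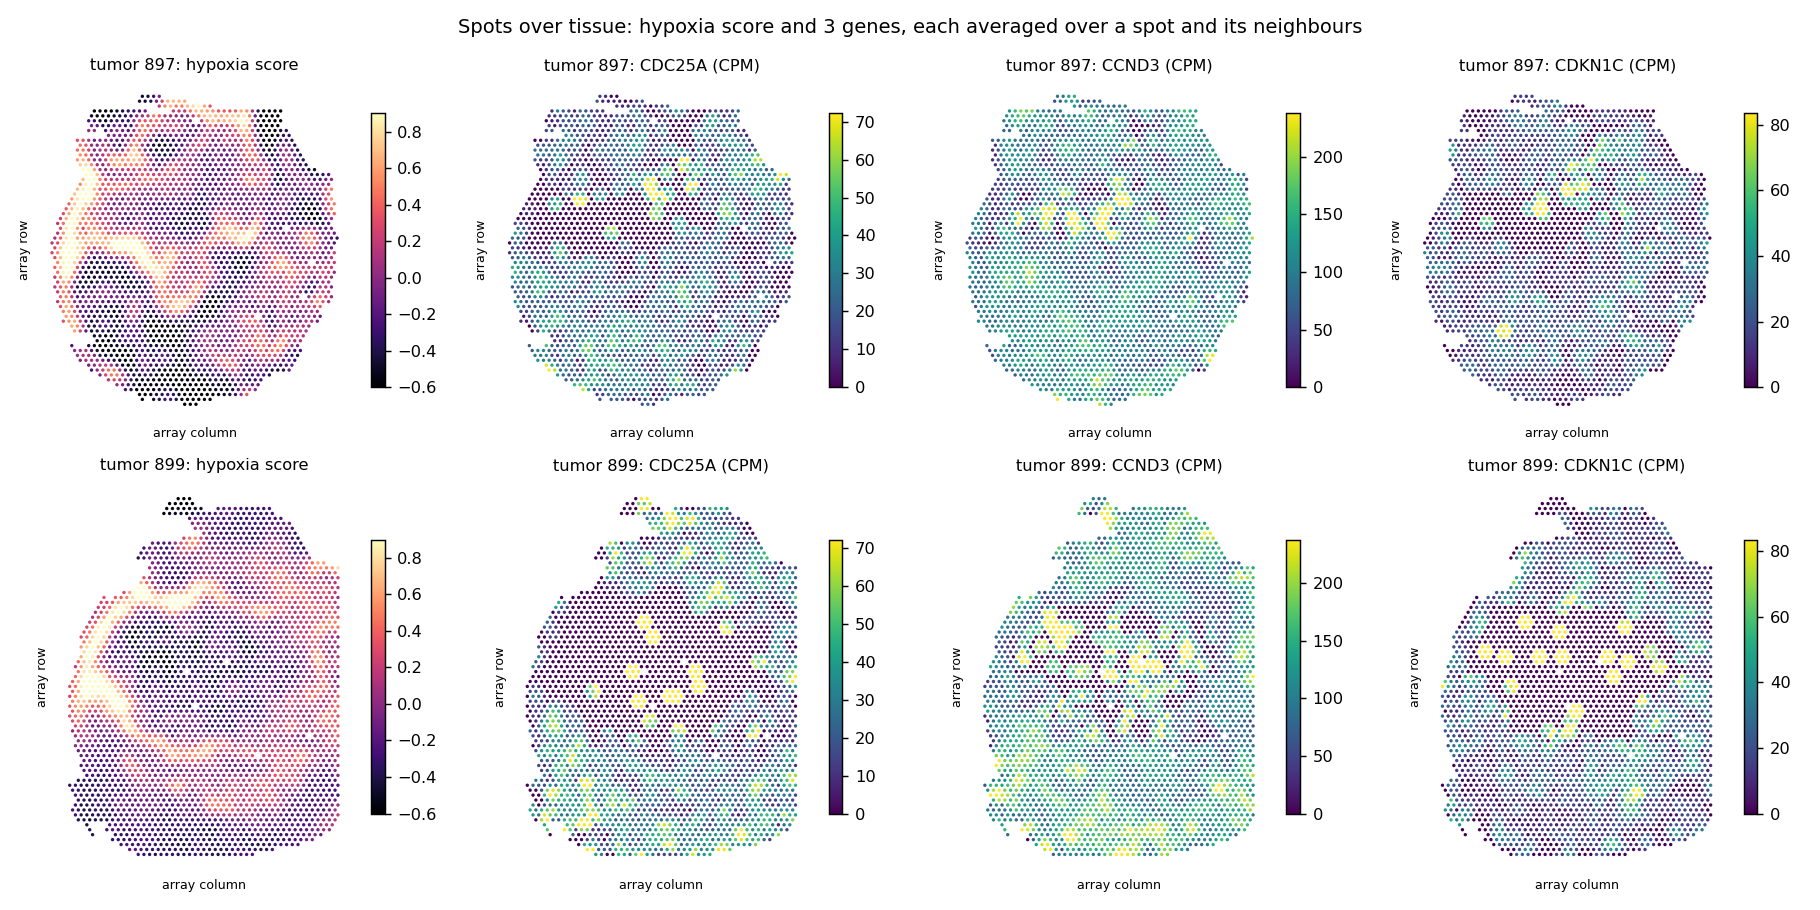
Spots over tissue of Tumor-897 (upper panels) and Tumor-899 (lower panels), placed by array column and row, colored by the hypoxia score and by the levels of CDC25A, CCND3 and CDKN1C in CPM, each averaged over a spot and its neighbours. Scattered bright spots in the inner area lie where few UMIs were captured; CDC25A there had 15.9 and 11.6 CPM over the whole low-UMI area, against 21.6 and 26.2 CPM outside it.

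The inner tertile of each section by distance from the tissue border was set against the outer tertile, a split that uses no expression value. CDKN1A, CCNE1 and CDC25B were lower inside and CDKN1C was higher, 4 of the 10 genes (edgeR, 5.66% of 14758 genes passed, 3.36% lower and 2.30% higher). CDKN1A had 80.0 CPM outside and 67.5 CPM inside in Tumor-897 and 84.6 and 66.8 CPM in Tumor-899. Its log2 fold change of -0.28 ± 0.07 (edgeR, SE, adjusted p = 0.0246) is opposite in sign to that along the score. CCNE1 went from 14.7 to 11 and from 21 to 15.6 CPM (-0.42 ± 0.12, adjusted p = 0.0445, edgeR), and CDC25B from 50.8 to 44.5 and from 57.9 to 43.3 CPM (-0.29 ± 0.08, adjusted p = 0.0410, edgeR). CDKN1C went from 16 to 19.4 and from 16.6 to 24.4 CPM (0.41 ± 0.12, adjusted p = 0.0409, edgeR).

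The other 6 genes were not called between inside and outside. CDC25A differed by -0.26 ± 0.12, with -0.012 in Tumor-897 and -0.56 in Tumor-899, and CCND1 by -0.18 ± 0.07, with -0.050 and -0.30. The top quartile of the score made up 24.4% and 19.1% of inner spots and 29.2% and 24.8% of outer spots. Of the 28 score genes, however, 7 were called higher inside and 1 lower. Their median log2 fold change was 0.16, with 0.026 in Tumor-897 and 0.34 in Tumor-899. The inner tertile held 40.4% and 55.1% low-UMI spots against 6.20% and 10.1% outside, and the 14 fibroblast markers summed to 570.3 against 1525 CPM and 423 against 2043 CPM. The skeletal muscle markers summed to 11.2 CPM inside and 14.7 CPM outside in Tumor-897 and to 25.8 and 442 CPM in Tumor-899, and all 7 that were tested were called lower inside. Of the 9 macrophage and granulocyte markers tested, 6 were called lower inside, with a median log2 fold change of -1.21. The part of these markers and of depth in the result was not tested. Without the low-UMI area CDC25B (adjusted p = 0.0452) and CDKN1C (adjusted p = 0.0293) stayed called by edgeR and CDKN1A (0.0574) and CCNE1 (0.0555) did not, and with library size alone, DESeq2 or no tumor block none of the 10 was called.

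Spots with a score under the median were also compared by their distance to the top quartile, matched on the score: 291 near and 291 far spots in Tumor-897 and 159 of each in Tumor-899. The match did not make the score genes equal. Near against far, the 28 score genes had a median log2 fold change of -0.17, with -0.15 in Tumor-897 and -0.057 in Tumor-899, and 0 were called. None of the 10 genes was called (edgeR, 0.0242% of 12410 genes passed, 0.0161% higher and 0.00806% lower; 1 of the 10 had an unadjusted p under 0.05, and DESeq2 called none). CCNE1 had the largest estimate, 0.38 ± 0.19 on the log2 scale with a 95% interval of 0.0020 to 0.76, from 11.4 CPM far to 14.9 CPM near in Tumor-897 and from 22.4 to 28.4 CPM in Tumor-899. CDKN1B followed with 0.28 ± 0.17 (-0.074 to 0.63). CDKN1A had -0.24 in Tumor-897 and 0.18 in Tumor-899. The intervals still allow a fall of up to 0.30 for CDC25A and a rise of up to 0.20 for CCNB1. They were wider for CCNE2 (-0.37 to 0.57, with 0.30 in Tumor-897 and -0.44 in Tumor-899) and for CDKN1C (-0.50 to 0.20). Low-UMI spots were 13.7% and 47.8% of the near and 28.9% and 40.9% of the far spots, and the fibroblast markers summed to 967 near and 672 CPM far in Tumor-897 and to 1036 and 1735 CPM in Tumor-899. The red blood cell markers summed to 97.3 CPM near and 15.1 CPM far in Tumor-897 and to 12.5 and 22.9 CPM in Tumor-899, and the 1 that was tested was called higher near. The skeletal muscle markers summed to 14 CPM both near and far in Tumor-897 and to 25.9 CPM near and 205 CPM far in Tumor-899. The part of these markers and of depth was not tested.

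Over patches of 8 by 16 array rows and columns with at least 25 spots (43 in Tumor-897 and 46 in Tumor-899), the levels of the 10 genes were set against each other. All 21 pairs among the 7 cyclins and CDC25 genes had a positive Pearson r of log2 CPM in both tumors, with means over the tumors from 0.232 to 0.698 and a median of 0.506. In these patches CCND1 and CDC25B formed the closest pair (0.603 and 0.793), followed by CCND1 and CCND3 (0.642 and 0.718). The order depended on the patch size: with patches of 6 by 12 (74 and 83), CCND1 and CDC25B had 0.472 and 0.281, below the 0.595 and 0.474 of CCND1 and CCND3, and CCNE1 with CDC25B turned to -0.0636 in Tumor-899. CCNE2 had the lowest values, with 0.189 and 0.275 against CCNE1. Of the 21 pairs of these genes with an inhibitor, 10 were negative and 1 positive in both tumors, with a median of -0.0967. CDKN1C had the most negative, -0.209 and -0.473 with CCND1, and the 3 pairs among the inhibitors had a median of -0.0639. These values are descriptions: patches of a section share its library, depth differs between them, and CCNE2 rests on a median of 11 and 7 UMIs per patch.

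**Figure D5:**
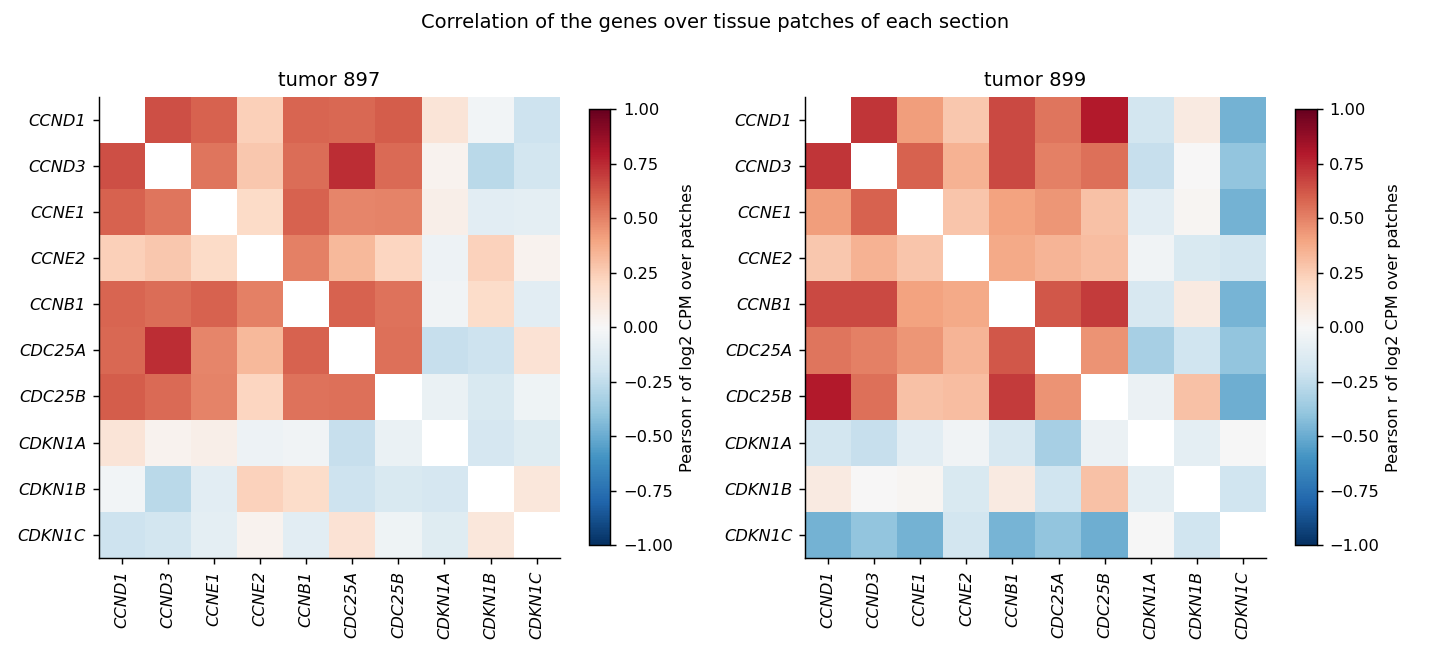
Pearson correlation of log2 CPM between the 10 genes over the 43 patches of Tumor-897 (left) and the 46 patches of Tumor-899 (right), on a color scale from -1 to 1. The block of the 7 cyclins and CDC25 genes is red in both panels (mean r from 0.232 to 0.698), and the 3 inhibitors fall outside it.

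Against the score, CCND3 had an r over patches of -0.757 in Tumor-897 and -0.528 in Tumor-899 and CDC25A of -0.598 and -0.425, while CDKN1A had 0.0272 and 0.135. The score itself had an r with depth of -0.215 and 0.384. The r with depth was 0.39 and 0.47 for CCND1, 0.42 and 0.374 for CDC25A, 0.391 and 0.352 for CDC25B and 0.376 and 0.195 for CCND3. It was 0.194 and 0.197 for CCNB1, 0.0671 and 0.19 for CCNE1 and 0.114 and -0.00955 for CCNE2. The inhibitors had 0.134 and -0.273 (CDKN1A), -0.178 and -0.144 (CDKN1B) and 0.0141 and -0.23 (CDKN1C). The part of depth in the correlations between genes was not tested. Among 3223 genes with at least 50 CPM in both tumors, those closest to CCND1 in mean r over both tumors were MAT2A (0.798), TUBA1B (0.770) and HNRNPAB (0.764). CCND3 had HNRNPAB (0.807), EIF5 (0.732) and FOXM1 (0.729), and CCNB1 had HNRNPA2B1 (0.814), HNRNPA3 (0.788) and TUBA1B (0.749). The closest to CDC25A were ARMC6 (0.789), HNRNPAB (0.743) and SOD1 (0.689). The closest to CDC25B was CCND1 (0.698). CDKN1A had lower values, with MCL1 (0.512), PLEK2 (0.472) and TUBB6 (0.460). With smaller patches 4 of the 18 pairs ranked in this way were again among the closest 3, so the names depend on the patch size.

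The rest of the pathway was followed between the top and the bottom quartile, in lists chosen with earlier results of these data known, beside the 7.62% lower and 9.51% higher of all genes. Of 26 S phase genes 25 fell and none rose, with a median log2 fold change of -0.56; RRM2, which makes deoxynucleotides, fell by 0.70 ± 0.08 (edgeR, SE, adjusted p = 4.03e-06) and CLSPN, a checkpoint adaptor at replication forks, by 0.69 ± 0.10 (adjusted p = 8.31e-05). Of 30 G2 and M phase genes 19 fell and none rose (median -0.35); the mitotic kinesins KIF2C and KIF23 had -0.51 ± 0.10 and -0.48 ± 0.09, KIF2C with -0.31 in Tumor-897 and -0.73 in Tumor-899. Of 17 RB and E2F genes 8 fell and none rose (median -0.39), led by E2F2 (-1.07 ± 0.33, adjusted p = 0.0298, with -0.74 and -1.34 in the tumors alone) and the repressor E2F8 (-0.96 ± 0.21, adjusted p = 0.00315).

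Of the 8 cyclin-dependent kinases 4 fell and 1 rose (median -0.16): CDK2, the partner of the E cyclins, had -0.43 ± 0.10 and CDK1 -0.37 ± 0.08, while CDK7, part of the kinase that activates other CDKs, had 0.30 ± 0.09 (edgeR, SE, adjusted p = 0.00499, 0.00373 and 0.0188). Among 14 genes of CDK switches and turnover 6 fell and 1 rose (median -0.22). SKP2, which targets p27 for breakdown, fell by 0.68 ± 0.12, and PKMYT1, an inhibitory kinase of CDK1, by 0.65 ± 0.12. WEE1, the other inhibitory kinase, rose by 0.43 ± 0.11 (edgeR, SE, adjusted p = 0.00996).

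The remaining cyclins did not move as a group, with 3 higher and 2 lower of 14 (median 0.067). CCNG2, an atypical cyclin linked to cell cycle exit, rose by 1.24 ± 0.12 (edgeR, SE, adjusted p = 3.41e-07), by 1.25 and 1.20 in the tumors taken alone. CCNL1, which acts with kinases of RNA processing, had 0.43 ± 0.10, with 0.56 and 0.26 in the tumors alone. CCNA2, the S and G2 cyclin, fell by 0.48 ± 0.09 and CCNF, part of a ubiquitin ligase, by 0.87 ± 0.14. Of 15 p53 target genes 2 rose and 1 fell (median 0.041): GDF15 had 0.73 ± 0.18 (0.50 and 1.07 in the tumors alone), GADD45A 0.47 ± 0.09 and BTG2 -0.87 ± 0.29 (-0.37 and -1.35). Of the 5 other inhibitors only CDKN2C, CDKN2D and CDKN3 could be tested, and none was called (median -0.22).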

How the data were processed

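Visium libraries of 1 section from each of 2 MDA-MB-231 tumors were analysed. The authors deposited raw UMI counts for every spot and gene. They come from Space Ranger (1.3.0 in the headers of the count files, per the file headers), and the genome was hg38 (per the submitters' processing notes). Filters before deposit are not given in the sources used here. A spot on tissue needed 500 UMIs to stay in (2536 of 2536 and 2841 of 2846). For the hypoxia score, log2(1 + UMIs per 10000) was z-scored per gene, averaged over 28 genes, each detected in at least 5% of spots of both tumors, and then averaged with the adjacent spots. Spots are not replicates, so counts were summed per tumor and zone and tested with edgeR 4.0.16 (glmQLFit and glmQLFTest, TMM, filterByExpr, tumor as a block) in R 4.3.3. The test was run on simulated counts, in which every gene had the same dispersion, set in advance and not estimated from these data. Changes were given only to genes above a minimum mean count and were the same in both tumors. The percentages below therefore are not the power of the real fits. Of simulated log2 changes of 0.5, 59% were recovered between the outer quartiles and 67%, 65% and 70% at the successive steps. For inner against outer it was 70% and for near against far 47%, so smaller changes can go uncalled. Unchanged genes called in the simulation numbered 1 between the outer quartiles and 2, 9 and 12 at the successive steps. There were 8 for inner against outer and 0 for near against far. Each comparison has 4 sums and 1 residual degree of freedom, and leans on the spread shared over genes. That shared spread had a weight of 19.5 degrees of freedom for the top against the bottom quartile. At the first and the last step between neighbouring quartiles its weight was infinite, so a gene's own spread between the tumors did not count. Genes of the score were left out of tests between its zones. The tumor block pairs zones of the same section. Poisson intervals (95%) cover counting error only. The low-UMI area holds spots below an Otsu threshold on smoothed UMIs (11492 and 5310), 20.8% and 29.0% of spots. Near spots lay within 2 steps of the top quartile and far spots at 4 or more. Alternatives changed the scaling, tool (DESeq2 1.42.0), filter, block, depth, zones, score genes and patch size. The 10 genes are given in every comparison; of each pathway list up to 2 genes called higher and 2 called lower with the largest changes are named, and CCNG1 is counted only. For genes of at least 20 CPM the 3 genes most alike over patches are named, except for CDC25B, where only the closest is reported here. The genes and lists were chosen with earlier results of these data known.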

Additional observations from a re-analysis of the deposited data

How the results depend on the processing

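Along the score, from top to bottom quartile, all 10 genes kept their direction in 15 of 15 alternative settings, CDC25A and CCND3 were called in all 15 and CDKN1B in none. The count of genes called higher went from 2 to 0 with library size alone, DESeq2, no replicate block (tumor) and tertiles, and to 1 with spots thinned to 2000 UMIs; the count called lower went from 7 to 2 with DESeq2, to 2 with no replicate block and to 4 with thinned spots. At the last step (1 higher, 5 lower), 0 genes were higher with library size alone, DESeq2, no filter and no replicate block, and 1 (DESeq2), 0 (no replicate block) and 2 (without the low-UMI area) were lower. At the second step 2 genes were lower without the low-UMI area. Between the inner and outer tertile (1 higher, 3 lower), 0 and 0 were called with library size alone, DESeq2 and no replicate block, and 1 was lower without the low-UMI area. With library size alone the median over all genes shifted to -0.11 for the top against the bottom quartile, with 644 genes higher and 1766 lower in place of 1343 and 1076, and to -0.07 at the last step, with 524 higher and 1623 lower in place of 890 and 550.

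Over all genes, the top against bottom quartile called 2419, but 408 with DESeq2, 545 with no replicate block, 1377 with tertiles and 839 with thinned spots. The first step called 165, against 1 (DESeq2), 13 (no filter) and 0 (no replicate block). The second called 111, against 13, 211 and 0 in that order and 389 without the low-UMI area. The last called 1440, against 188 (DESeq2) and 0 (no replicate block). Inner against outer called 836, against 394 with library size alone, 102 with DESeq2 and 41 with no replicate block. Near against far called 3, against 0 (DESeq2), 16 (no filter), 0 (no replicate block) and 42 (without the low-UMI area).

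In the tests, the log2 fold changes of the 10 genes that changed sign were near 0 and not called in either setting. At the first step CDC25A went to 0.024 with no replicate block and CDKN1A to -0.012 without the low-UMI area; CDKN1B went to -0.010 at the second step without that area. Near against far, CCNE2 went to -0.033 with DESeq2, and without the low-UMI area CCND3 went to 0.060, CCNE2 to -0.017 and CCND1 to 0.088. With smaller patches some correlations changed sign: CCNE2 with CDKN1B went from 0.234 to -0.11 in Tumor-897, CCNE1 with CDC25B from 0.29 to -0.0636 in Tumor-899, and CDKN1A with CDKN1C from a mean of -0.0639 to 0.102. The cause of these changes was not tested. Each tumor alone gives a value with no test, since 1 section per zone is left. CCNE2 had the fewest UMIs of the 10 genes, 549 and 400, and with spots thinned to 2000 UMIs the calls of CCNE1, CCNE2, CDC25B and CDKN1A from top to bottom quartile were lost.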
